A study of Mus musculus with 10 samples.

Results

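The sarcomere, Z-disc and muscle quality control genes are 42 of the 54532 genes in the table, chosen by gene symbol. They were sorted by known role into 8 genes of the thick filament and M-band, 11 of the thin filament, 10 of the Z-disc, 4 of the desmin and filamin network, 5 chaperones and methyltransferases, and 4 ubiquitin ligase genes. Every member was found once. Hearts were compared between 5 vehicle control and 5 trametinib-treated (MEKi) mice, and all 10 mice were *Rit1* M90I/+, so that both groups carried the Noonan syndrome variant and no wild-type heart is part of the comparison. The variant was made germline by crossing conditional *Rit1* M90I males to cytomegalovirus-Cre deleter females, which recombines the allele in all tissues and not in cardiomyocytes alone. Trametinib, an allosteric inhibitor of MEK1 and MEK2, was given at 1 mg/kg daily for 20 weeks from 4 weeks of age, and the controls received the carrier solution. The study asked whether inhibition of the MAPK pathway lessens cardiac hypertrophy, and the present comparison asks what the transcripts of the contractile machinery and of its upkeep did in the same hearts.

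The sarcomere is the repeating contractile unit of striated muscle. Myosin thick filaments are held together at the M-band, actin thin filaments are anchored at the Z-disc, and titin spans from one to the other. The desmin network ties neighbouring Z-discs together, while chaperones fold and protect the filament proteins and muscle ubiquitin ligases mark them for removal. Variants of many of these genes, among them *Mybpc3*, *Tnnt2*, *Tpm1*, *Myl2* and *Myl3*, are known causes of hypertrophic cardiomyopathy.

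Depth was recovered from the FPKM (fragments per kilobase of gene length, scaled to library size), which times gene length were whole multiples of one step in every heart. Between 13647167 and 16659254 fragments were assigned to genes in vehicle hearts, and between 14868373 and 18474002 in MEKi-treated hearts. *Xist* had from 1456 to 2199 fragments in each MEKi-treated heart and at most 2 in a vehicle heart, while *Ddx3y*, on the Y chromosome, had from 814 to 901 in vehicle hearts and 0 in MEKi-treated hearts. Treatment and sex-linked transcripts thus divided the hearts identically, and their parts in any difference given here cannot be told apart. The cardiomyocyte genes *Myh6*, *Actc1*, *Tnni3*, *Ryr2* and *Pln* were abundant in every heart, with a summed level of 9589 to 12165 FPKM with vehicle and 9314 to 12678 FPKM with MEKi. Of 14 skeletal muscle genes, 3 (*Myh2*, *Myh4* and *Tnnc2*) were at 0 in every heart, and *Myh1* had at most 2 fragments. Others were found in every heart. *Mybpc2* had from 110 to 377 fragments per heart (mean 4.20 FPKM) and *Casq1* from 7 to 216 (highest in MEKi heart 2, 6.45 FPKM). *Tnni2*, *Mylpf* and *Pvalb* were also above 0 in every heart, with at most 37 fragments. The source of these transcripts was not tested. Vehicle hearts 4 and 5 and MEKi heart 2 held much more of the atrial transcript *Myl7*, at 615, 258 and 519.5 FPKM, than the other hearts (highest, 27.0 FPKM). The atrial markers *Sln*, *Myl4* and *Dkk3* were also highest in these hearts, but *Nppa* and *Bmp10* followed only in part. *Nppa* was highest in vehicle heart 4 (1298 FPKM). It was at 454 FPKM in MEKi heart 1, above vehicle heart 5 (419 FPKM) and MEKi heart 2 (396 FPKM), and at most 280 FPKM elsewhere. *Bmp10* was highest in vehicle heart 2 (1.41 FPKM), followed by MEKi heart 2 (1.04 FPKM) and vehicle heart 4 (0.880 FPKM), and at 0 in vehicle heart 5. In whole-heart RNA, fewer cardiomyocytes and less RNA per cardiomyocyte cannot be told apart.

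The members spanned a wide range of levels. Per kilobase, 6 members had a mean above 1000 FPKM over the 10 hearts, 9 lay between 100 and 1000 FPKM, 21 between 10 and 100 FPKM, and 6 below 10 FPKM. The top of the range was held by the ventricular myosin light chains *Myl2* and *Myl3* (means of 5867 and 3959 FPKM), followed by cardiac troponin C, *Tnnc1* (2402 FPKM), the titin cap *Tcap* (1912 FPKM), tropomyosin *Tpm1* (1462 FPKM) and the small heat shock protein *Cryab* (1346 FPKM). At the bottom were the intermediate filament gene *Synm* (1.64 FPKM), *Myom3* (0.542 FPKM), a myomesin of slow skeletal muscle, and nebulin, *Neb* (0.107 FPKM), the thin filament ruler of skeletal muscle. Together the 42 members took from 7.26 to 9.14% of the fragments outside mitochondrial genes with vehicle and 6.99 to 8.78% with MEKi, and these ranges overlapped.

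**Figure D1:**
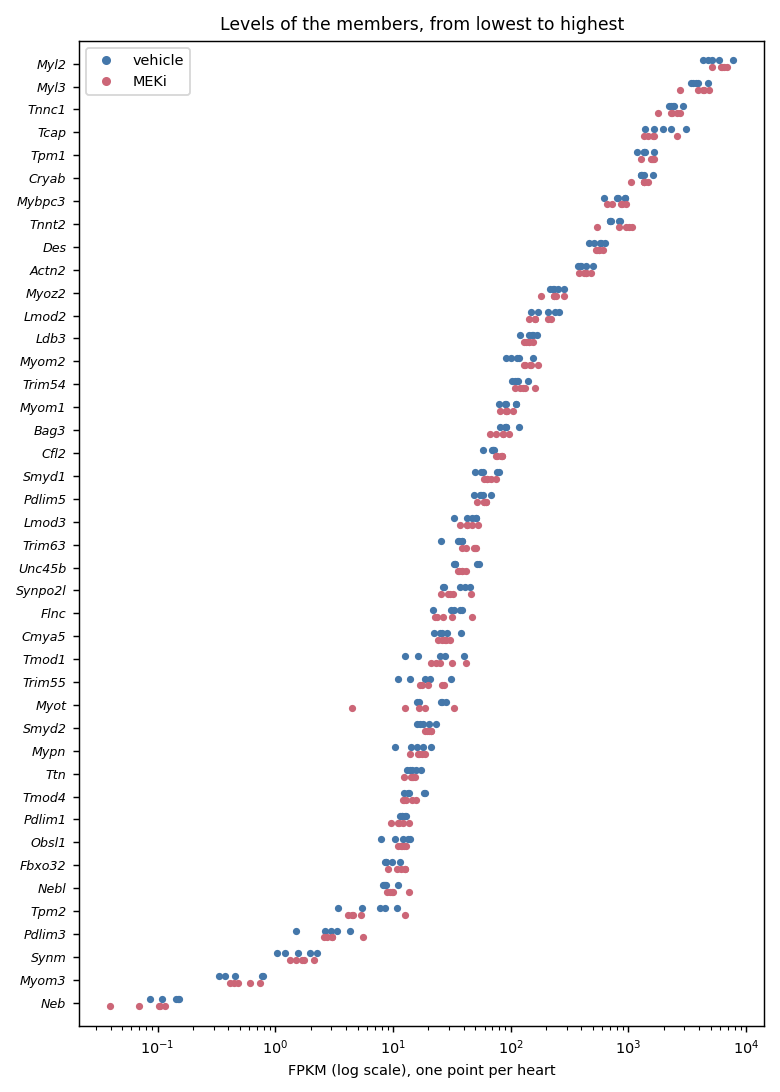
FPKM of each member on a log axis, ordered by mean level, with 1 point per heart in blue for vehicle and in red for MEKi. The members run from *Neb*, at a mean of 0.107 FPKM, to *Myl2*, at 5867 FPKM, and for all but *Cfl2* the points of both groups overlap.

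In the fit over all genes, no member passed an adjusted p of 0.05 between MEKi-treated and vehicle hearts. The fit used limma on log2(FPKM + 0.1) with Benjamini-Hochberg adjustment over all 12602 genes whose mean reached 0.5 FPKM, of which 10 (0.0794%) passed. Log2 differences are MEKi minus vehicle on this scale. Of the members, 41 were tested and *Neb* was below the filter. At an unadjusted p under 0.05 there were 3 members, *Cfl2*, *Myom2* and *Trim63*, all higher with MEKi, and no member lower; over all genes tested, 3.67% were higher and 3.94% lower at this level. Over the 21 alternatives this level was reached by *Trim63* in 21, *Cfl2* in 20 and *Myom2* in 15, and lower members appeared in 2 of them, *Tmod4* (−0.36) without the 3 hearts high in *Myl7* and *Myot* (−0.91) without MEKi heart 2. Only *Cfl2* had groups with no overlap (higher with MEKi), where 0.794% of all genes tested lay wholly higher and 0.849% wholly lower. The median log2 fold change of the 41 members was 0.035, with 22 above and 19 below 0, beside a median of 0.011 over all genes tested. For 32 of the 41 members the 95% interval of the difference stayed within 1.5-fold in both directions, as it did for 64.6% of all genes tested and 82.3% of those with a mean of 5 FPKM or more. Voom on the recovered fragments also passed 0 members at an adjusted p of 0.05 and gave 4 at an unadjusted p under 0.05. Over all genes tested, voom gave slightly more at that unadjusted level than the 960 of the limma fit.

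**Figure D2:**
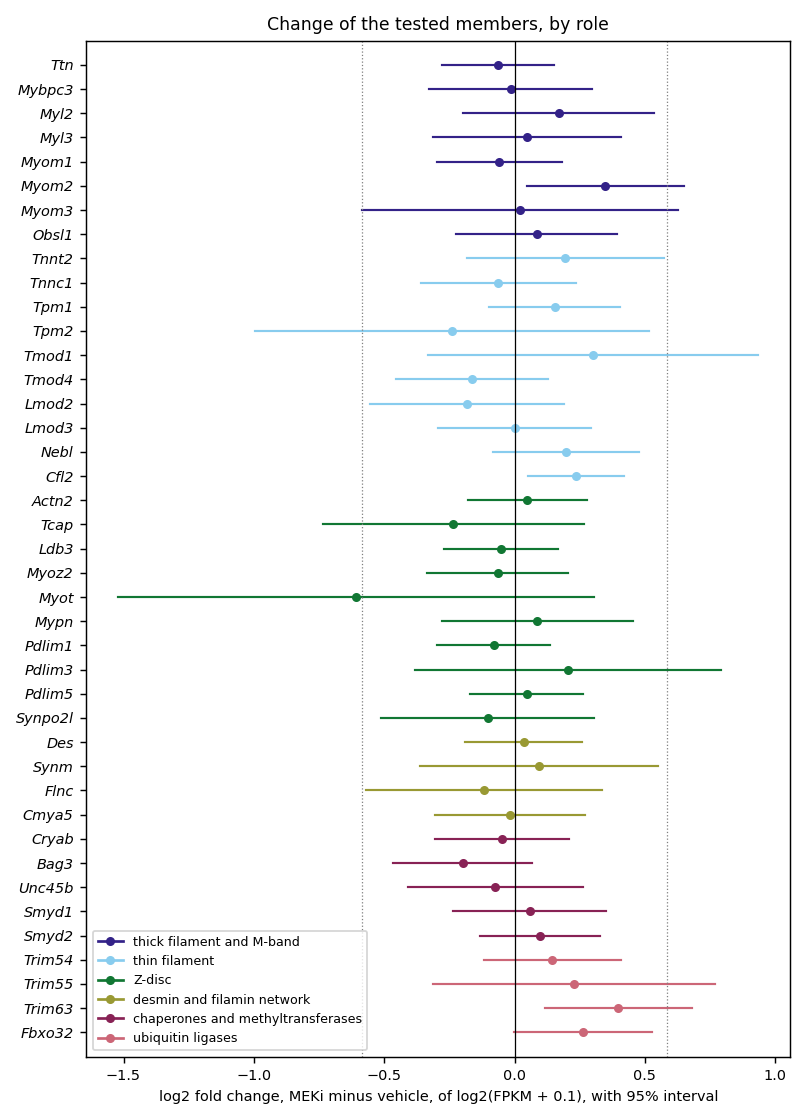
Log2 fold change (MEKi minus vehicle) of the 41 tested members on the log2(FPKM + 0.1) scale, with 95% intervals from limma, coloured by role; dotted lines mark 1.5-fold. The intervals of *Myom2*, *Cfl2* and *Trim63* lie above 0, and those of 32 members stay between the dotted lines.

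The upstream sequences of 4 members are shown because *Cfl2* and *Trim63* had the lowest p-values among the members and because *Tpm2* and *Pdlim3*, described further on, were high in the same hearts. Each line gives the 250 bases before the RefSeq start of the gene on its own strand (GRCm38.p6), 5′ to 3′, at chr12:54862878-54863127, minus strand for *Cfl2*, at chr4:134314870-134315119, plus strand for *Trim63*, at chr4:43523555-43523804, minus strand for *Tpm2* and at chr8:45885237-45885486, plus strand for *Pdlim3*. Capitals mark matches on either strand to any of 9 motifs. These are the TATA box (letters TATAAA), the E-box bound by myogenic and other helix-loop-helix factors (letters CANNTG), the M-CAT core bound by TEAD factors (letters CATTCC), the box named after its letters CCAAT, the GC box bound by Sp1 (letters GGGCGG), the core bound by FOXO factors (letters GTAAACA), the core bound by GATA factors (letters GATAAG), the MEF2 motif and the CArG box of serum response factor.
*Cfl2*: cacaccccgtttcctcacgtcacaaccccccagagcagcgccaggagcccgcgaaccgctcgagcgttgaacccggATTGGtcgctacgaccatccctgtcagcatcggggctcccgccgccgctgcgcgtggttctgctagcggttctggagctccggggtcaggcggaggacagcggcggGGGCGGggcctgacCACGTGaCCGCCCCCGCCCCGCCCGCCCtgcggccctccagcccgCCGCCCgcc
*Trim63*: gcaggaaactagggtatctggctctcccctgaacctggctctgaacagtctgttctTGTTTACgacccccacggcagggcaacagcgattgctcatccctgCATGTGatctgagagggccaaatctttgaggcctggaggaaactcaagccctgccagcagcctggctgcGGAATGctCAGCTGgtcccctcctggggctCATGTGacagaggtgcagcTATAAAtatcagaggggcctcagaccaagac
*Tpm2*: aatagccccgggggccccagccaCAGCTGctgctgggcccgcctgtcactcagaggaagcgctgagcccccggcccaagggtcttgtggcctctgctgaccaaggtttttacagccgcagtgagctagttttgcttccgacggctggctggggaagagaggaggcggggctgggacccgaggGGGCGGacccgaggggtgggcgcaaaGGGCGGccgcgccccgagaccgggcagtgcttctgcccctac
*Pdlim3*: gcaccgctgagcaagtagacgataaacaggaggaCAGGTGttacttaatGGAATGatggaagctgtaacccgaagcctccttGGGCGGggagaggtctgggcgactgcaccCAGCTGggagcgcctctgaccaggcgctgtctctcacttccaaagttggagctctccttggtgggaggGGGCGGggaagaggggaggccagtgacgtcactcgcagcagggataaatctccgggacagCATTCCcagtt

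The windows differ in what they hold. Upstream of *Cfl2* lie 6 GC boxes, 3 of which overlap one another, a CCAAT box and the E-box CACGTG, and no TATA box. The *Trim63* window has a TATA box at bases −31 to −26, with 3 E-boxes, an M-CAT core and a FOXO core at −194 to −188. Those of *Tpm2* and *Pdlim3* each hold 2 GC boxes, with 1 E-box for *Tpm2*, and 2 E-boxes and 2 M-CAT cores for *Pdlim3*. The windows of *Cfl2* and *Trim63* end where the gene counted for the FPKM begins. Most of the *Tpm2* window, with its 2 GC boxes, lies inside the counted gene, which reaches to base 43523765. The counted *Pdlim3* gene begins at base 45885461, so the M-CAT core nearest the RefSeq start lies inside it. Of the 42 members 34 had an entry in the promoter table, and of these 29.4% held an M-CAT core, 14.7% a MEF2 motif and 8.82% a CArG box, beside 12.6%, 2.92% and 1.47% of all 32851 promoter windows of the same length. E-boxes were found in 79.4% of member windows and 66.2% of all, the GC box in 38.2% and 32.7%, the CCAAT box in 29.4% and 33.8%, the TATA box in 11.8% and 12.4%, the GATA core in 8.82% and 6.55%, and the FOXO core in 2.94% and 3.17%. A match of letters is a description of the window and does not show that a factor binds there.

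In the thick filament and M-band, *Myom2* was the only 1 of 8 members at an unadjusted p under 0.05 (limma, 0.0274). It encodes M-protein, a myomesin that crosslinks myosin at the M-band of adult heart and fast skeletal muscle, and lies on chromosome 8 at 15057653 to 15133541, plus strand (GRCm38). *Myom2* was at 114, 102, 155, 118 and 90.5 FPKM in vehicle hearts 1 to 5 and at 150.0, 132, 147, 169 and 129.9 FPKM in MEKi-treated hearts 1 to 5. All MEKi-treated hearts were above the vehicle median, yet vehicle heart 3 was higher than 4 of them, so the groups overlapped. The means were 116 ± 24.5 and 146 ± 15.97 FPKM (SD, n = 5 each; log2 difference 0.35, SE 0.14, adjusted p = 0.585 by limma, 95% interval 0.046 to 0.65). Without vehicle heart 5 the log2 fold change was 0.27, and without vehicle heart 3 it was 0.46.

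*Myom1*, the principal myomesin, had means of 96.4 ± 13.4 and 92.2 ± 8.30 FPKM (log2 difference −0.059, SE 0.11, adjusted p = 0.933 by limma). The ratio of *Myom2* to *Myom1* within a heart was 1.03, 1.11, 1.40, 1.32 and 1.13 in vehicle hearts 1 to 5 and 1.6, 1.45, 1.62, 1.63 and 1.61 in MEKi-treated hearts 1 to 5. Every MEKi-treated heart had a higher ratio than every vehicle heart, and the means were 1.197 ± 0.157 and 1.58 ± 0.0743 (SD, n = 5 each). This was 1 of 10 ratios of related members that were formed after the values were seen, and the groups overlapped for the other 9, so no test is given. A ratio within a heart does not say which of the genes differed.

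*Myom3* was at 0.778, 0.793, 0.454, 0.333 and 0.376 FPKM in vehicle hearts and 0.483, 0.444, 0.609, 0.741 and 0.411 FPKM in MEKi-treated hearts, on 28 to 80 fragments per heart. Its coefficient of variation was the largest of the role, 40.6% among vehicle hearts and 25.3% among MEKi-treated hearts, and the group means were 0.547 and 0.538 FPKM (log2 difference 0.022, SE 0.28, adjusted p = 0.989 by limma).

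The most abundant member, *Myl2*, the regulatory light chain of ventricular myosin, was at 7789, 5157, 4335, 5858 and 4729 FPKM in vehicle hearts and 6132, 6439.8, 6242, 6866 and 5118 FPKM in MEKi-treated hearts. Vehicle heart 1 was the highest of all, and the other vehicle hearts lay mostly below the MEKi-treated hearts. The group means were 5574 ± 1361 and 6159.5 ± 646 FPKM (log2 difference 0.17, SE 0.17, adjusted p = 0.846 by limma, 95% interval −0.20 to 0.53), and the log2 fold change was 0.30 without vehicle heart 1 and 0.086 without vehicle heart 3. The essential light chain *Myl3* had means of 3874 ± 539 and 4045 ± 788 FPKM (log2 difference 0.048, SE 0.16, adjusted p = 0.963 by limma), and *Mybpc3*, which encodes cardiac myosin-binding protein C, had 825 ± 132 and 815 ± 119.9 FPKM (log2 difference −0.014, SE 0.14, adjusted p = 0.987 by limma). Titin, *Ttn*, the largest of the genes with 116825 exonic bases, was at 14.96 ± 1.66 and 14.3 ± 1.14 FPKM on 21322 to 34086 fragments per heart, and its 95% interval of −0.28 to 0.15 on the log2 scale was among the narrower ones. *Obsl1*, an obscurin-like cytoskeletal linker at the M-band, was at 11.5 ± 2.42 and 12.0 ± 0.738 FPKM (log2 difference 0.085, SE 0.14, adjusted p = 0.924 by limma). Of the 8 members of the role, 5 had a log2 fold change above 0 and 3 below, with a median of 0.035.

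Among the thin filament genes, *Cfl2* was the only member whose groups did not overlap. It encodes muscle cofilin, which severs and depolymerizes actin filaments and takes part in setting thin filament length, and it lies on chromosome 12 at 54858809 to 54862877, minus strand (GRCm38). *Cfl2* was at 58.8, 69.8, 72.2, 70.4 and 71.2 FPKM in vehicle hearts 1 to 5 and 76.2, 84.2, 83.1, 84.6 and 74.7 FPKM in MEKi-treated hearts 1 to 5. The lowest MEKi-treated heart, heart 5, was just above the highest vehicle heart, heart 3, and vehicle heart 1 was far below the other vehicle hearts. The means were 68.5 ± 5.48 and 80.5 ± 4.72 FPKM (SD, n = 5 each), a mean that was 17.7% higher with MEKi (log2 difference 0.24, SE 0.085, adjusted p = 0.549 by limma, 95% interval 0.051 to 0.42). Without vehicle heart 1 the log2 fold change was 0.18 (limma adjusted p = 0.463), and over all 21 alternatives it ran from 0.17 to 0.31, with adjusted p from 0.370 to 0.808.

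*Tmod1*, tropomodulin 1, which caps the pointed end of the thin filament, had the largest log2 fold change of the role and one of the widest spreads. It was at 16.4, 27.8, 39.9, 25.0 and 12.6 FPKM in vehicle hearts 1 to 5 and at 31.8, 20.9, 23.4, 25.0 and 42.0 FPKM in MEKi-treated hearts 1 to 5. MEKi heart 5 and vehicle heart 3 were highest, vehicle hearts 5 and 1 lowest, and the groups overlapped throughout. The group means were 24.3 ± 10.7 and 28.6 ± 8.50 FPKM (log2 difference 0.30, SE 0.29, adjusted p = 0.837 by limma, 95% interval −0.33 to 0.94). The log2 fold change was 0.093 without vehicle heart 5, 0.15 without MEKi heart 5 and 0.51 without vehicle heart 3. Of its exonic bases 32.6% are shared with *Tstd2* on the opposite strand, which was at a mean of 0.819 FPKM, and the strand setting of the counting is not given in the sources used here. The related *Tmod4* was at 15.4 ± 2.94 and 13.6 ± 1.55 FPKM (log2 difference −0.16, SE 0.13, adjusted p = 0.814 by limma). The leiomodins, which nucleate actin filaments and lengthen them at the same end, were at 204 ± 45.8 and 179 ± 33.0 FPKM for *Lmod2* (log2 difference −0.18, SE 0.17, adjusted p = 0.831 by limma) and at 44.8 ± 7.48 and 44.5 ± 5.92 FPKM for *Lmod3*.

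*Tpm2*, β-tropomyosin, a minor form in mouse heart, had the largest coefficient of variation of the thin filament genes when averaged over both groups, 40.1% with vehicle and 58.0% with MEKi. Vehicle hearts 1 to 5 were at 7.70, 5.44, 3.41, 8.59 and 10.9 FPKM and MEKi-treated hearts 1 to 5 at 4.61, 12.7, 5.34, 4.46 and 4.13 FPKM. MEKi heart 2 and vehicle hearts 5 and 4 were the 3 highest, which are also the 3 hearts with high *Myl7*. The group means were 7.21 ± 2.89 and 6.24 ± 3.62 FPKM (log2 difference −0.24, SE 0.35, adjusted p = 0.909 by limma), and with these 3 hearts left out the log2 fold change was −0.18. It was −0.53 without MEKi heart 2, −0.48 without vehicle heart 3 and −0.066 without vehicle heart 5. Vehicle heart 5 and MEKi heart 2 also had the highest levels of the smooth muscle myosin *Myh11*, 5.39 and 5.68 FPKM, where the other hearts lay between 1.58 and 3.07 FPKM. The 6 smooth muscle markers summed to 51.9 to 96.5 FPKM with vehicle and 62.8 to 101 FPKM with MEKi. Their part, and that of atrial tissue, in the *Tpm2* values was not tested.

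*Tnnc1*, the most abundant thin filament gene, was at 2912, 2307, 2435, 2375 and 2206 FPKM in vehicle hearts and 2359.9, 2590.1, 2301, 2747 and 1784 FPKM in MEKi-treated hearts. MEKi heart 5 was the lowest and vehicle heart 1 the highest, and the means of 2447 ± 273 and 2356 ± 366 FPKM lay within the spread between hearts (log2 difference −0.063, SE 0.14, adjusted p = 0.944 by limma). Its log2 fold change was 0.016, the other side of 0, on a TPM scale (FPKM brought to the same sum in every heart). Cardiac troponin T, *Tnnt2*, had 755 ± 76.1 and 884 ± 208 FPKM (log2 difference 0.20, SE 0.17, adjusted p = 0.82 by limma). MEKi heart 5 was lowest of all 10 hearts for *Tnnt2*, at 544 FPKM, and MEKi hearts 2, 3 and 4 were above every vehicle heart. *Tpm1* had 1386 ± 163 and 1539 ± 145 FPKM (log2 difference 0.15, SE 0.12, adjusted p = 0.794 by limma), and *Nebl*, the nebulette of the cardiac Z-disc edge, 8.98 ± 1.17 and 10.4 ± 1.89 FPKM (log2 difference 0.20, SE 0.13, adjusted p = 0.757 by limma). *Neb* had 18 to 68 fragments per heart, at 0.128 ± 0.0292 and 0.0867 ± 0.0317 FPKM, which is too little for a statement on the groups. Of the 10 thin filament genes tested, 5 lay above 0 and 5 below, with a median log2 fold change of 0.077.

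Z-disc genes were close to even between the groups, apart from a few with wide spread between hearts. The median log2 fold change of the 10 was −0.058, with 4 above and 6 below 0. *Myot* encodes myotilin, an actin crosslinker at the Z-disc, and had the largest log2 difference in size of all 41 members and the widest range from the lowest to the highest heart. It was at 16.5, 16.1, 28.4, 25.7 and 26.0 FPKM in vehicle hearts 1 to 5 and 12.7, 33.0, 16.7, 18.9 and 4.52 FPKM in MEKi-treated hearts 1 to 5. The extremes of both kinds were MEKi-treated hearts, heart 2 being the highest and heart 5 the lowest of all 10, a 7.30-fold range. The means were 22.5 ± 5.78 and 17.2 ± 10.4 FPKM (log2 difference −0.61, SE 0.42, adjusted p = 0.771 by limma, 95% interval −1.52 to 0.30). Without MEKi heart 5 the log2 fold change was −0.20, and without MEKi heart 2 it was −0.91.

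*Tcap*, the telethonin that joins a pair of titin ends at the Z-disc, was the most abundant Z-disc transcript, at 3073, 1960.2, 1375, 2323 and 1654 FPKM in vehicle hearts and 1616, 1666, 1478, 2615 and 1356 FPKM in MEKi-treated hearts. Vehicle heart 1 and MEKi heart 4 were the highest of their groups, which overlapped, and the means were 2077 ± 659 and 1746 ± 501 FPKM (log2 difference −0.23, SE 0.23, adjusted p = 0.844 by limma). The log2 fold change ran from −0.39 without MEKi heart 4 to −0.079 without vehicle heart 1. α-Actinin 2, *Actn2*, the main crosslinker of actin at the Z-disc, was at 418 ± 50.6 and 431 ± 34.5 FPKM (log2 difference 0.049, SE 0.10, adjusted p = 0.944 by limma), *Ldb3*, which encodes cypher, at 147 ± 17.9 and 141 ± 9.35 FPKM, and *Myoz2*, calsarcin 1, an inhibitor of calcineurin, at 243 ± 27.2 and 234 ± 36.5 FPKM. The 95% intervals of *Actn2*, *Ldb3* and *Myoz2* were −0.18 to 0.28, −0.27 to 0.17 and −0.34 to 0.21 on the log2 scale. *Mypn*, myopalladin, was at 15.98 ± 4.06 and 16.6 ± 1.79 FPKM (log2 difference 0.088, SE 0.17, adjusted p = 0.935 by limma), and *Synpo2l* at 35.3 ± 8.35 and 32.8 ± 8.01 FPKM (log2 difference −0.10, SE 0.19, adjusted p = 0.932 by limma).

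The PDZ and LIM domain genes, whose proteins dock on α-actinin, differed in how evenly the hearts held them. *Pdlim1* (12.1 ± 0.570 and 11.5 ± 1.52 FPKM) and *Pdlim5* (57.3 ± 7.16 and 59.0 ± 4.11 FPKM) varied by 1.43-fold and 1.41-fold from the lowest to the highest heart. *Pdlim3* varied by 3.70-fold, at 3.00, 2.63, 1.503, 3.32 and 4.35 FPKM in vehicle hearts 1 to 5 and 2.60, 5.56, 3.03, 3.01 and 2.73 FPKM in MEKi-treated hearts 1 to 5. Its 3 highest hearts were MEKi heart 2 and vehicle hearts 5 and 4, the same as for *Tpm2*, and vehicle heart 3 was lowest for both. The difference between the groups was within the spread (log2 difference 0.20, SE 0.27, adjusted p = 0.897 by limma).

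The desmin and filamin network had no member at an unadjusted p under 0.05 (limma). Desmin, *Des*, was at 632, 585, 570.1, 507 and 464 FPKM in vehicle hearts and 542, 563, 568, 607 and 531 FPKM in MEKi-treated hearts, and its 95% interval of −0.19 to 0.26 on the log2 scale lay well inside 1.5-fold. The means were 552 ± 66.6 and 562 ± 29.1 FPKM (SD, n = 5 each; log2 difference 0.035, SE 0.10, adjusted p = 0.959 by limma). *Flnc*, filamin C, an actin crosslinker that marks sites of myofibril damage, had the largest coefficient of variation of the role when averaged over both groups, with 31.1, 32.8, 38.4, 37.2 and 21.8 FPKM in vehicle hearts 1 to 5 and 31.5, 26.7, 22.6, 23.7 and 46.9 FPKM in MEKi-treated hearts 1 to 5. MEKi heart 5 was the highest, vehicle heart 5 the lowest, and the group means were 32.3 ± 6.56 and 30.3 ± 9.91 FPKM (log2 difference −0.12, SE 0.21, adjusted p = 0.931 by limma), with a log2 fold change from −0.29 without MEKi heart 5 to −0.025 without MEKi heart 3. *Synm* was at 1.61 ± 0.509 and 1.68 ± 0.307 FPKM and *Cmya5*, myospryn, a desmin-binding protein of the costamere, at 28.0 ± 5.90 and 27.3 ± 2.34 FPKM. For all 4 genes of this role the 95% interval stayed within 1.5-fold.

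The chaperones and methyltransferases likewise had none at that level, and all 5 of their intervals stayed within 1.5-fold. *Cryab*, αB-crystallin, which shields desmin and titin from aggregation, was at 1618, 1272, 1359, 1277 and 1308 FPKM in vehicle hearts and 1367, 1463, 1369, 1364 and 1058 FPKM in MEKi-treated hearts. Vehicle heart 1 was the highest and MEKi heart 5 the lowest, and the other 8 hearts lay between 1272 and 1463 FPKM. The means were 1367 ± 145 and 1324 ± 154 FPKM (log2 difference −0.048, SE 0.12, adjusted p = 0.951 by limma), and the log2 fold change was 0.030 on a TPM scale, the other side of 0. *Cryab* shares 17.0% of its exonic bases with *Hspb2* on the opposite strand, a gene at a mean of 63.8 FPKM.

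*Bag3*, the co-chaperone that directs damaged filamin and other Z-disc proteins to autophagy, had the largest log2 fold change of this role. It was at 90.0, 92.2, 117, 81.1 and 91.7 FPKM in vehicle hearts 1 to 5 and 75.5, 86.3, 86.5, 95.9 and 66.9 FPKM in MEKi-treated hearts 1 to 5. Of the MEKi-treated hearts 1 was above the vehicle median, and the groups overlapped. The means were 94.4 ± 13.4 and 82.3 ± 11.2 FPKM (log2 difference −0.20, SE 0.12, adjusted p = 0.742 by limma, 95% interval −0.47 to 0.068), and the log2 fold change was below 0 under all 21 alternatives (−0.30 to −0.12).

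*Unc45b*, the chaperone that folds the myosin head, split the vehicle hearts, which were at 52.2, 33.6, 54.2, 33.2 and 33.4 FPKM, while MEKi-treated hearts were at 41.6, 35.9, 39.0, 36.1 and 38.8 FPKM. Vehicle hearts 1 and 3 were well above all other hearts, and the 3 remaining vehicle hearts were below all MEKi-treated hearts. The means were 41.3 ± 10.9 and 38.3 ± 2.36 FPKM (log2 difference −0.074, SE 0.15, adjusted p = 0.941 by limma), and the log2 fold change was 0.0046 on a TPM scale. *Smyd1*, a muscle methyltransferase that works with Unc45b in myosin assembly, was at 64.0 ± 12.9 and 65.8 ± 6.21 FPKM (log2 difference 0.058, SE 0.13, adjusted p = 0.947 by limma), and *Smyd2*, which methylates Hsp90 at the sarcomere, at 19.0 ± 2.87 and 20.1 ± 1.10 FPKM (log2 difference 0.097, SE 0.11, adjusted p = 0.869 by limma). A share of 30.0% of the exonic bases of *Smyd2* lies opposite *Gm37422*, which was at a mean of 0.359 FPKM.

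All 4 ubiquitin ligase genes had a log2 fold change above 0, with a median of 0.25, and none passed the adjusted p. Other TRIM and F-box genes, read outside the members, were not all above 0. *Fbxo30* (−0.046), *Trim32* (−0.020) and *Trim72* (−0.066) were below 0 and *Fbxo31* (0.022) above. Of further genes of ubiquitin ligases or their adaptors, *Stub1* (0.29, described further on), *Asb2* (0.17) and *Ube4b* (0.063) were above 0. *Klhl31* (−0.094), *Klhl40* (−0.070) and *Klhl41* (−0.076) were below. Between the same groups the 5 macrophage markers were all below 0 (median log2 fold change −0.35), as were the 5 endothelial markers (−0.17), while 4 of 5 cardiomyocyte markers were above 0 (0.14). The fibroblast markers were 2 above and 4 below 0 (−0.13), and the smooth muscle markers tested 1 above and 4 below (−0.12). Of the skeletal muscle markers tested, 1 was above and 4 below (−0.39). The 5 atrial markers tested were below 0 (−2.23) and the 3 adipocyte markers tested above (0.91). None of these markers passed the adjusted p (limma). *Csf1r*, the fibroblast gene *Col1a1* and the skeletal muscle gene *Pvalb* had an unadjusted p under 0.05, all lower with MEKi. The part of these cells in the ligase values was not tested. *Trim63* encodes MuRF1, the muscle RING finger ligase that marks thick filament proteins for the proteasome, and lies on chromosome 4 at 134315120 to 134329629, plus strand (GRCm38). It was at 38.4, 35.6, 38.9, 36.7 and 25.7 FPKM in vehicle hearts 1 to 5 and at 50.1, 42.0, 50.5, 49.0 and 38.3 FPKM in MEKi-treated hearts 1 to 5. Of the MEKi-treated hearts 4 were above every vehicle heart, and MEKi heart 5 lay just below vehicle hearts 1 and 3. The means were 35.1 ± 5.37 and 46.0 ± 5.50 FPKM (SD, n = 5 each), a mean that was 31.1% higher (log2 difference 0.40, SE 0.13, adjusted p = 0.481 by limma, 95% interval 0.12 to 0.68, unadjusted p = 0.00981 in the same limma fit). Without vehicle heart 5, the low one, the log2 fold change was 0.29 (limma adjusted p = 0.634), and over all 21 alternatives it ran from 0.29 to 0.48, with adjusted p from 0.270 to 0.743. The unadjusted p was under 0.05 in all 21.

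*Fbxo32* encodes atrogin-1, the F-box protein of a muscle ubiquitin ligase separate from MuRF1. *Fbxo32* is given in full because its unadjusted p of 0.0507 (limma) was seen to lie at the edge. Vehicle hearts 1 to 5 were at 8.59, 8.78, 11.6, 9.76 and 8.69 FPKM and MEKi-treated hearts 1 to 5 at 10.9, 9.02, 12.7, 12.8 and 11.6 FPKM. MEKi heart 2 was close to the lower vehicle hearts, 3 MEKi-treated hearts were above every vehicle heart (heart 5 only by 11.64 against 11.55 FPKM), and all 5 were above the vehicle median. The means were 9.47 ± 1.25 and 11.4 ± 1.55 FPKM (log2 difference 0.26, SE 0.12, adjusted p = 0.652 by limma, 95% interval −0.00097 to 0.53). The log2 fold change stayed between 0.22 and 0.34 over the 21 alternatives, and the unadjusted p was under 0.05 in 10 of them.

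*Trim55* (MuRF2) and *Trim54* (MuRF3) are relatives of *Trim63*. *Trim54* was at 142, 108, 115, 114 and 103 FPKM with vehicle and 119, 131, 127, 159.6 and 108 FPKM with MEKi. Its means were 116 ± 15 and 129 ± 19.3 FPKM (log2 difference 0.14, SE 0.12, adjusted p = 0.818 by limma), and 26.6% of its exonic bases lie opposite *Gm15469*, at a mean of 0.125 FPKM. *Trim55* spread far more, at 13.9, 20.7, 31.4, 18.8 and 11.1 FPKM in vehicle hearts 1 to 5 and 25.9, 20.0, 16.9, 17.7 and 27.0 FPKM in MEKi-treated hearts 1 to 5. Its highest and lowest hearts, vehicle hearts 3 and 5, were both controls, and the means were 19.2 ± 7.83 and 21.5 ± 4.65 FPKM (log2 difference 0.23, SE 0.25, adjusted p = 0.869 by limma), with a log2 fold change of 0.055 without vehicle heart 5 and 0.43 without vehicle heart 3. The log2 fold changes of *Trim54*, *Trim55*, *Trim63* and *Fbxo32* were above 0 under every one of the 21 alternatives, the lowest being 0.039 for *Trim55* with the 3 hearts high in *Myl7* left out.

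**Figure D3:**
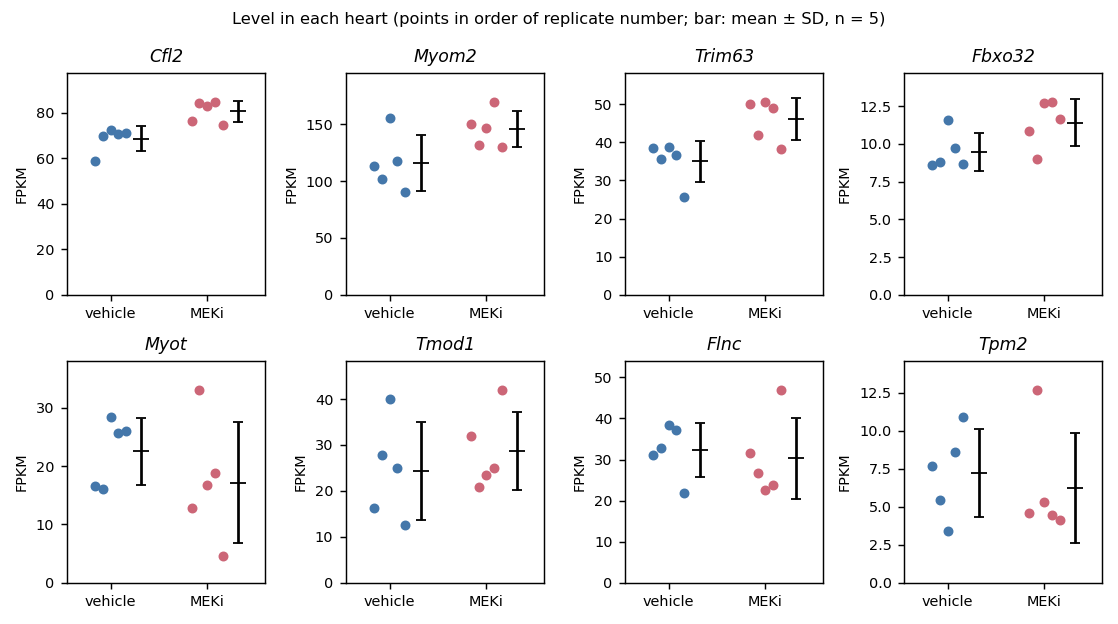
FPKM of 8 members in each heart (points in order of replicate number, blue for vehicle and red for MEKi), with mean ± SD (n = 5) beside them, on axes that start at 0. The points of *Cfl2* do not overlap between groups (at most 72.2 FPKM with vehicle and at least 74.7 FPKM with MEKi), while those of *Myot*, *Tmod1*, *Flnc* and *Tpm2* spread widely within each group.

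For many members, among them *Ttn*, *Myl2* and *Des*, the SD within each group was larger than the difference between the group means. From the lowest to the highest of the 10 hearts, 11 members varied by less than 1.5-fold, 20 by 1.5-fold to 2-fold and 11 by 2-fold or more. These ranges are over both groups together and so hold the difference between groups as well as the spread within them. The most variable were *Myot* (7.30-fold), *Neb* (3.85-fold), *Tpm2* (3.72-fold), *Pdlim3* (3.70-fold) and *Tmod1* (3.34-fold), and the least variable *Actn2* (1.34-fold), *Des* (1.36-fold) and *Myom1* (1.38-fold).

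The spread was not the same in each heart. Vehicle heart 5 was the lowest of the 10 hearts for 17 of the 42 members and MEKi heart 5 for 10, while vehicle heart 3 was the highest for 11 and vehicle heart 1 for 9. In vehicle heart 5 the members took 7.26% of the fragments outside mitochondrial genes, in vehicle heart 1 9.14%, and in MEKi heart 5 6.99%. Vehicle heart 5 also had the highest summed level of the 5 endothelial markers, 158 FPKM against at most 127.5 FPKM in the other hearts, and of the 5 macrophage markers, 178 FPKM against at most 137 FPKM. The 6 fibroblast markers summed to 204 FPKM in that heart and to between 134 and 178 FPKM in the others. The part of these cells in the low member values of vehicle heart 5 was not tested.

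*Tmod1*, *Trim55* and *Flnc* were high in vehicle heart 3 and MEKi heart 5, the 2 highest hearts for each, and lowest in vehicle heart 5. *Nebl* was also highest in those 2 hearts, at 11.1 and 13.7 FPKM, where the other 8 lay between 8.27 and 9.94 FPKM. Vehicle heart 3 had the largest share of mitochondrial fragments, 35.0%, and MEKi heart 5 had 27.4%, within the range of the others (24.0 to 31.1%). In MEKi heart 5 *Myl3*, *Tnnc1*, *Tcap*, *Myoz2*, *Cryab*, *Ttn*, *Tnnt2*, *Tmod4*, *Myot* and *Bag3* were at their lowest of the 10 hearts. These patterns were noticed in the values and are given without a test.

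**Figure D4:**
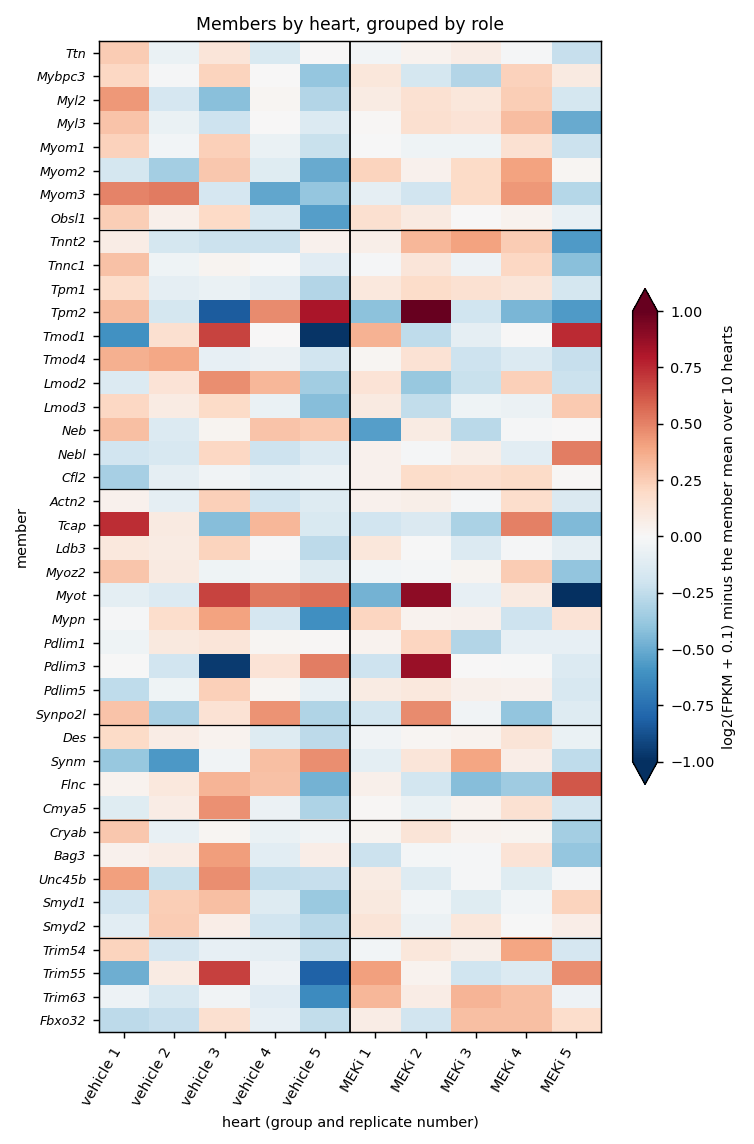
Log2(FPKM + 0.1) of the 42 members in each heart, minus the mean of that member over the 10 hearts (red above, blue below, colours ending at 1 in both directions), with roles separated by lines. *Tpm2* and *Pdlim3* are red in MEKi heart 2 and vehicle heart 5, *Tmod1* and *Trim55* in vehicle heart 3 and MEKi heart 5, and vehicle heart 5 is blue for many members.

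Among related members, no other ratio separated the groups as *Myom2* to *Myom1* did. The ratio of *Trim63* to *Trim54* was 0.271, 0.329, 0.339, 0.322 and 0.250 in vehicle hearts 1 to 5 and 0.421, 0.320, 0.398, 0.307 and 0.355 in MEKi-treated hearts 1 to 5, with 3 MEKi-treated hearts above all vehicle hearts. The ratio of *Tmod4* to *Tmod1* had means of 0.735 ± 0.320 and 0.511 ± 0.169, that of *Lmod3* to *Lmod2* 0.224 ± 0.0464 and 0.254 ± 0.0507, and that of *Smyd2* to *Smyd1* 0.300 ± 0.0274 and 0.308 ± 0.0308 (SD, n = 5 each). In all of these the groups overlapped.

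**Figure D5:**
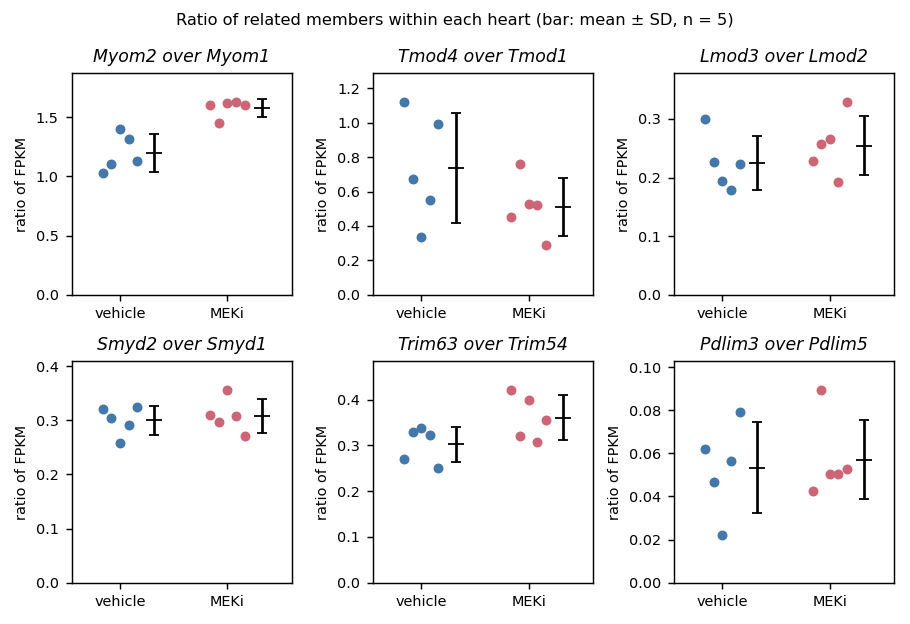
Ratio of FPKM of 6 pairs of related members within each heart (points in order of replicate number, blue for vehicle and red for MEKi), with mean ± SD (n = 5). The ratio of *Myom2* to *Myom1* is at most 1.40 in vehicle hearts and at least 1.45 in MEKi-treated hearts, and the groups overlap in the other panels.

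Other genes of the contractile apparatus and of its upkeep were read from a pair of lists. Of 26 further sarcomere and Z-disc genes, 24 were tested and 0 passed the adjusted p (limma), with 14 above and 10 below 0, a median log2 fold change of 0.015 and 1 gene, *Xirp2*, at an unadjusted p under 0.05. *Xirp2*, a Xin actin-binding protein of the intercalated disc and Z-disc, was at 28.9, 26.9, 36.7, 32.5 and 25.0 FPKM in vehicle hearts 1 to 5 and 20.5, 25.1, 21.4, 20.4 and 20.5 FPKM in MEKi-treated hearts 1 to 5. MEKi heart 2 reached just above the lowest vehicle heart, and the means were 30.0 ± 4.67 and 21.6 ± 2.02 FPKM (log2 difference −0.46, SE 0.11, adjusted p = 0.314 by limma). The α-myosin heavy chain *Myh6*, the main motor of the adult mouse heart, had 2044 ± 368 and 2494 ± 336 FPKM (log2 difference 0.29, SE 0.14, adjusted p = 0.665 by limma), and the β form *Myh7* 30.1 ± 17.4 and 31.5 ± 13.7 FPKM (log2 difference 0.11, SE 0.34, adjusted p = 0.961 by limma). Of 26 further quality control genes, 25 symbols were found, 24 were tested and 0 passed (limma), with 9 above and 15 below 0 and a median of −0.051. *Stub1*, the ubiquitin ligase CHIP, which works with Bag3 and Hsp70, was the 1 gene at an unadjusted p under 0.05, at 40.7, 34.6, 35.0, 30.0 and 25.2 FPKM in vehicle hearts 1 to 5 and 38.8, 38.5, 42.4, 39.9 and 40.3 FPKM in MEKi-treated hearts 1 to 5 (log2 difference 0.29, SE 0.12, adjusted p = 0.592 by limma). Vehicle heart 1 was above 4 of the MEKi-treated hearts, so these groups overlapped.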

How the data were processed

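RNA from 10 hearts was poly(A) selected and sequenced, and the authors deposited 1 table of FPKM per gene and heart, with gene length. Per the labels the processing used fastp, STAR 2.5, HTSeq 0.6.1 and mm10; the annotation release and strand setting are not given in the sources used here. GENCODE M21 coordinates matched for 98.3% of shared gene identifiers, and the lengths of all 42 members equalled its exon lengths. In every heart, 100% of FPKM times length were whole multiples (within 0.001) of 1 step, which gave the fragments; the library sizes behind the FPKM equalled median-of-ratios scaling. Hearts were grouped by label, and p-values measure the spread between these hearts.

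Log2(FPKM + 0.1) was fitted with limma 3.58.1 in R 4.3.3 (eBayes with trend, two-sided) for genes whose mean reached 0.5 FPKM, with Benjamini-Hochberg adjustment over all of them. The fold change on this scale understates that of low genes. The members, lists and choice of genes were made with earlier results of these data known. Heart values are given for members that had an unadjusted p under 0.05 or groups apart, or that led their role in level, log2 fold change or variation. The fit was tested on simulated data. The 21 alternatives varied pseudocount, filter, scale, test, block, hearts and genes tested. Promoter sequences are from RefSeq (GRCm38.p6).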

Additional observations from a re-analysis of the deposited data

Results flagged for a closer look

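In 84 groups of 5 hearts (42 members in each treatment), 11 held 1 heart far from the other 4, where chance gives about 1 in 20 groups. The share was 13.1% for the members and 6.53% over 25187 such groups of all genes tested, and the groups are not independent, since the same 10 hearts serve every gene and 4 of the 11 are MEKi heart 5. In MEKi heart 5, *Tpm1* was at 1286 FPKM (others 1562 to 1653), *Pdlim5* at 51.9 FPKM (others 59.6 to 62.2) and *Cryab* at 1058 FPKM (others 1364 to 1463), each low, while *Nebl* was high at 13.7 FPKM (others 8.89 to 9.94). In MEKi heart 2, *Tpm2* was at 12.7 FPKM (others 4.13 to 5.34) and *Pdlim3* at 5.56 FPKM (others 2.60 to 3.03), both high. *Tcap* stood at 2615 FPKM in MEKi heart 4 (others 1356 to 1666). Among vehicle hearts, heart 1 was low for *Cfl2* at 58.8 FPKM (others 69.8 to 72.2) and high for *Cryab* at 1618 FPKM (others 1272 to 1359), heart 3 was high for *Nebl* at 11.1 FPKM (others 8.27 to 8.69), and heart 5 was low for *Trim63* at 25.7 FPKM (others 35.6 to 38.9). No cause was tested for any of them.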

How the results depend on the processing

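Under all 21 alternatives 0 members passed the adjusted p (limma), and the lowest adjusted p of any member was 0.270, with array weights. At an unadjusted p under 0.05 there were 3 members, and 1 with quantile normalization (*Trim63*). With each heart left out there were from 2 to 5 (5 without vehicle heart 3 or MEKi heart 2, the latter with *Myot* lower). Of all 12602 genes tested, 960 reached this level in the main fit, and slightly more with quantile normalization. With each heart left out it was reached by 810 (without MEKi heart 3) to 1259 (without vehicle heart 3). The rise to 5 members without vehicle heart 3 thus came with a rise over all genes. Without MEKi heart 2 the count over all genes was 908, below that of the main fit. Members with groups apart numbered 1, 2 on a TPM scale and 1 to 3 with each heart left out (3 without vehicle heart 3, 2 without MEKi heart 5). Groups lie apart more easily for every gene when a heart is left out. The share of all genes with groups apart was not counted under these alternatives, so these counts of groups apart are no result about the members. Over all genes, 10 passed, against 2 with a mean of at least 5 FPKM, 18 with array weights, 5 without the 3 hearts high in atrial transcripts, 0 without X, Y and mitochondrial genes and 5 to 13 with each heart left out, of which 5 is without vehicle heart 2. The median log2 fold change of the members was −0.10 without the 3 hearts high in atrial transcripts. Log2 fold changes crossed 0 for *Tnnc1* (0.016), *Cryab* (0.030) and *Unc45b* (0.0046) on a TPM scale, for *Cryab* (0.016) and *Unc45b* (0.037) with array weights, for *Myom3* with a pseudocount of 1 (−0.0012), and for *Myom3* (−0.22) and *Des* (−0.085) without the 3 hearts. With each heart left out they ran from −0.11 to 0.16 for *Myom3*, −0.12 to 0.034 for *Tnnc1*, −0.086 to 0.031 for *Cryab*, −0.14 to 0.034 for *Unc45b* and −0.026 to 0.086 for *Des*; the cause was not tested. Of the 41 members tested, 20 crossed 0 under at least 1 alternative, these 5 and 15 of those given without all heart values (*Lmod3* most often), each at most 0.205 in size over all hearts.

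The labels do not say whether the replicate numbers pair the hearts. Deviations of same-numbered hearts had correlations from −0.15 to −0.021, so no shared deviation was seen. Hearts of different number were not compared, so this cannot decide whether the hearts were paired. With the replicate block 4 genes passed over all genes and 0 members did. At an unadjusted p under 0.05 there were 4 members, beside 771 of the 12602 genes tested. Depth limits *Neb* and *Myom3* most, with 18 to 68 and 28 to 80 fragments per heart.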

Other observations

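The spread within groups was smaller among MEKi-treated hearts for 27 of the 41 members tested, with a median coefficient of variation of 15.98% with vehicle and 13.3% with MEKi. The same held for 67.2% of the 12585 genes tested with a level above 0 in both groups, a share near the 65.9% of the members. *Obsl1* (20.96 and 6.14%), *Unc45b* (26.3 and 6.15%) and *Mypn* (25.4 and 10.8%) were among the members with the larger difference in this, and *Myot* (25.6 and 60.6%) went the other way.

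Skeletal α-actin, *Acta1*, a thin filament gene outside the members that is re-expressed in stressed heart, was at 51.3, 82.2, 46.9, 162 and 262 FPKM in vehicle hearts 1 to 5 and 40.9, 247, 48.1, 93.7 and 14.9 FPKM in MEKi-treated hearts 1 to 5. Its 3 highest hearts, vehicle hearts 5 and 4 and MEKi heart 2, were also the 3 highest for *Tpm2* and *Pdlim3*, and MEKi heart 5 was its lowest, as for *Myot*. *Acta1* was picked after its values were seen, and no test was made.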
